A study of Arabidopsis thaliana and Marchantia polymorpha with 6 samples.

Results

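The MYB genes described here are the protein-coding genes of the Arabidopsis thaliana gene table TAIR10.1 whose symbol or a synonym is MYB followed by a number. Of 27444 protein-coding genes on the 5 nuclear chromosomes, 125 carry such a name. Left out were 6 of them, MYB11, MYB12, LAF1 (MYB18), MYB111, MYB75 and MYB90, which leaves 119 members, 111 named by symbol and 8 by synonym. The rule uses names and no measured value, though it was written with earlier results of these data known. MYB48 stayed in the list although MYB111 stands among its synonyms.

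MYB proteins bind DNA through imperfect repeats of a helix-turn-helix fold, and most of the numbered family of Arabidopsis carry a pair of such repeats. Plants use them to switch branches of secondary metabolism on and off, to set the fate of epidermal cells, to build secondary walls, cuticle and suberin, to finish anthers and pollen, and to answer drought, salt, cold and wounding. Members are sorted into subgroups by conserved stretches of protein outside the repeats, and members of a subgroup often share a role. HY5 is a bZIP factor that promotes development in light, PIF4 is a bHLH factor that promotes growth in shade and warmth, and both are known to bind DNA elements of the G-box type.

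The series used DNA affinity purification sequencing (DAP-seq), in which a recombinant protein on beads selects fragments of naked genomic DNA. The 2 groups used here are AtPIF4 and AtHY5, each made in Escherichia coli and offered DNA of 10-day-old Col-0 seedlings broken to a mean of 200 bp. Naked DNA carries no nucleosomes, so the assay does not show whether a site is open in any cell. With 1 library for each protein there is no replicate error behind any value, and the input library was not analysed here. The authors' lists hold 6699 AtPIF4 and 16825 AtHY5 events, each an interval of 200 bp with a score from their caller. Read depth is unknown, and the longer list may come from a deeper library. What the score measures is not stated, so a score is used to rank events within its own list and is never compared between the lists.

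A member was counted when an event centre lay inside the gene or within 1000 bp of either end. The table gives no strand, so the side of the transcription start is not known. The build of the lists is named TAIR10 and that of the gene table TAIR10.1, so event positions are given and gene positions are not. No sequence file was used, and no sequence or motif is described. MYB genes stand in more open surroundings than most genes. Their median summed gap to both neighbours was 5606 bp against 1855 bp for all protein-coding genes, and their median length was 1781 bp against 2078 bp. The members' share was therefore set beside the share of all protein-coding genes and beside a matched share. The matched share is that of the other genes, weighted to the members' 25 classes of gene length and summed gap. The smallest class with a member held 1002 other genes. No test was run on these counts. The 95% Wilson intervals treat genes as independent, or events or pairs where those are counted, and cover counting error only.

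AtPIF4 events lay at 33 of the 119 MYB genes, or 27.7% (20.5 to 36.4), against 23.1% of all protein-coding genes and a matched share of 24.1%. AtHY5 events lay at 57 members, or 47.9% (39.1 to 56.8), against 47.7% of all genes and 48.1% matched. Events of both proteins lay at 24 members, or 20.2% (13.9 to 28.3), against 17% and 18.4%. AtPIF4 and AtHY5 centres within 100 bp of each other, called a coincident pair here, lay at 17 members, or 14.3% (9.11 to 21.7), against 11.9% and 13.5%. All 4 shares hold the matched share inside their interval, so as a family the MYB genes stood at the background in this assay. In expected numbers, the matched shares come to 28.7 members for AtPIF4, 57.2 for AtHY5, 21.9 for both and 16.1 for a coincident pair.

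**Figure D1:**
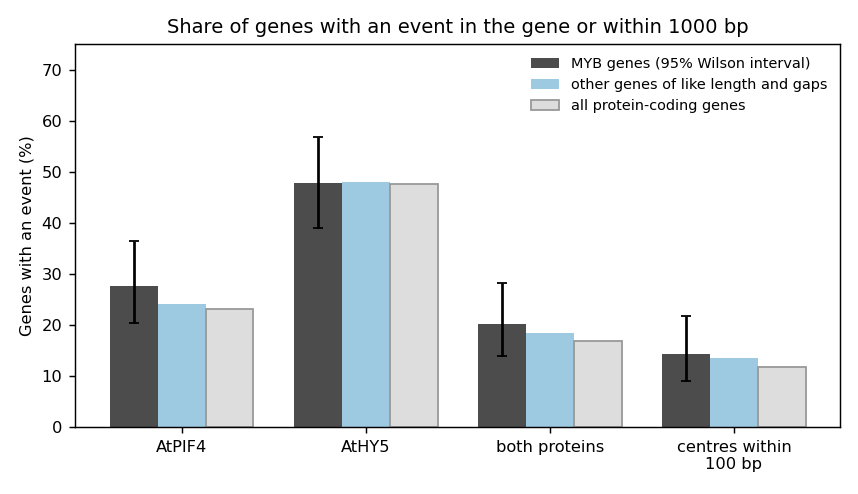
Share of genes (%, vertical axis) with an AtPIF4 event, an AtHY5 event, events of both, and AtPIF4 and AtHY5 centres within 100 bp, in the gene or within 1000 bp of it. Dark bars are the 119 MYB genes with 95% Wilson intervals, blue bars the other genes weighted to the members' length and gap classes, and pale bars all 27444 protein-coding genes. In each of the 4 sets the blue bar ends inside the interval of the dark bar.

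Events of either protein lay at 66 members and none lay at 53 (44.5%, against 46.2% of all genes). AtHY5 alone was listed at 33 members (27.7%, against 30.7%) and AtPIF4 alone at 9 (7.56%, against 6.13%). Of the 33 members with an AtPIF4 event, 72.7% also had an AtHY5 event, close to the 73.5% among all genes with an AtPIF4 event. Of the 57 with an AtHY5 event, 42.1% also had an AtPIF4 event, against 35.7% among all such genes. At the edge of the window stood MYB108 and MYB72, whose nearest AtPIF4 events lay 943 and 988 bp beyond the gene. MYB37 was just outside, with its nearest AtPIF4 event at 1126 bp and its nearest AtHY5 event at 1109 bp. The AtHY5 event nearest to MYB72 lay 1031 bp away and was not counted, though it is 43 bp from the counted AtPIF4 event.

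Counts varied among the subgroups. Subgroup lists written from general knowledge placed 103 of the 119 members, and 19 of the 25 lists held 3 or more members. AtHY5 events lay at every member of 3 of these 19 (S19, S20 and S22) and at no member of 4. AtPIF4 events lay at every member of 1 (S20) and at no member of 7. The subgroups are small, 19 were looked at, and none was tested.

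**Figure D2:**
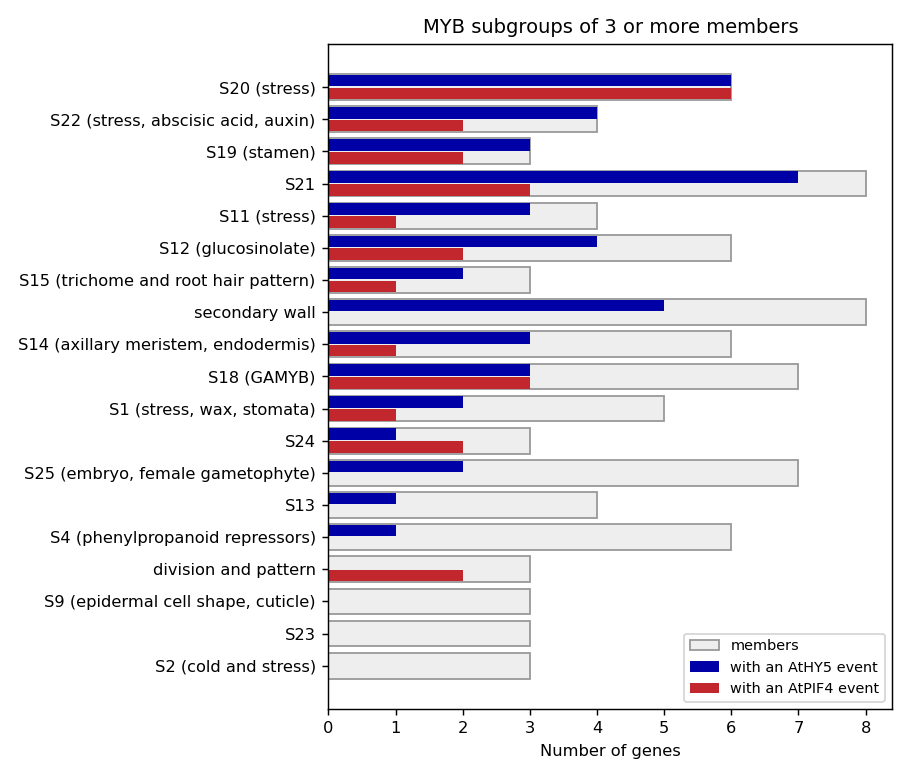
Number of genes (horizontal axis) in each of the 19 MYB subgroups of 3 or more members. Outlined bars are the members, blue bars those with an AtHY5 event and red bars those with an AtPIF4 event. S20 is filled by both colours with 6 of 6 genes, while S2, S9 and S23 have neither.

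Subgroup S20 holds MYB2, MYB62, MYB78, MYB108, MYB112 and MYB116, several of which act in responses to drought, nutrient shortage, wounding and jasmonate. All 6 of its genes had events of both proteins. Genes of the same length and gap classes would give 1.13 such members, 1.49 with AtPIF4 and 2.89 with AtHY5. MYB62, a gene of the response to phosphate starvation, and MYB116 had the closest pairs. At MYB62 (AT1G68320) an AtPIF4 event of score 314 at 25604702 to 25604901 on chromosome 1 and an AtHY5 event of score 127 had centres 1 bp apart. At MYB116 (AT1G25340) an AtPIF4 event of score 242 at 8886077 to 8886276 on chromosome 1 and an AtHY5 event of score 176 were again 1 bp apart. Both pairs lay inside the gene, 380 and 601 bp from the nearer end by the AtPIF4 centre.

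In the other S20 genes the proteins stood farther apart or differed more in rank. MYB112, which promotes anthocyanin formation under salt and strong light, had an AtPIF4 event of score 128 with AtHY5 events of score 118 and 353 at 37 and 173 bp. MYB78 had AtHY5 events of score 506 and 304 inside the gene and an AtPIF4 event of score 99, the nearest pair being 138 bp apart. MYB2, a drought response regulator, had AtPIF4 events of score 121 and 116 and AtHY5 events of score 283 and 231, with 135 bp between the closest. One event of each protein at MYB2 lay beyond the gene and inside both AT2G47200 and AT2G47210. Inside MYB108, which acts in jasmonate-dependent stamen maturation, lay an AtHY5 event of score 294, with an AtPIF4 event of score 239 located 943 bp beyond the gene, 1761 bp from the AtHY5 centre. Thus 3 of the 6 genes carried a coincident pair, against 0.81 expected by class. Without S20, the share with AtPIF4 was 23.9% against 24.2% matched and the share with both 15.9% against 18.4%, a comparison chosen after seeing the data that can only lower the shares.

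Subgroup S22 (MYB44, MYB70, MYB73 and MYB77) acts in responses to abscisic acid, auxin and stress. AtHY5 events lay at all 4 genes, against 1.85 expected by class, and AtPIF4 events at 2. MYB73 (AT4G37260) had AtHY5 events of score 505 and 211 inside the gene, at 17540994 to 17541193 and 17541058 to 17541257 on chromosome 4. An AtPIF4 event of score 180 lay between them, 28 bp from the first centre and 36 bp from the second. A second AtPIF4 event of score 127 lay 57 bp beyond the gene, inside the neighbour HMA1. MYB44 (AT5G67300, listed as MYBR1), known for stomatal closure under abscisic acid, had 4 AtHY5 events of score 419, 311, 180 and 65.4 and 2 AtPIF4 events of score 164 and 103. MYB70 and MYB77, the latter a regulator of lateral root growth under auxin, each had 1 AtHY5 event inside the gene, of score 129 and 118.

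Subgroup S21 had AtHY5 events at 7 of 8 genes (3.72 expected by class) and AtPIF4 events at 3 (1.84 expected). MYB89, a gene of 664 bp, was the one without any. MYB56 (AT5G17800), also known as BRAVO for holding back divisions in the root stem cell niche, had the highest AtHY5 score of the subgroup, 839 at 5878030 to 5878229 on chromosome 5, higher than 97.9% of the list. Its AtPIF4 events, of score 207 and 91, lay 744 bp from that centre and farther. MYB105 (AT1G69560), which with MYB117 shapes the boundaries of lateral organs, was the member with the most events, 4 of AtHY5 and 3 of AtPIF4. Its AtHY5 event of score 617 at 26157676 to 26157875 on chromosome 1 lay 36 bp from an AtPIF4 event of score 145. The remaining AtHY5 events of MYB105 had scores of 75.4 to 93.2, under the list's median of 117. MYB117 had weak events, 111 and 84 for AtHY5 and 94.9 for AtPIF4. MYB52, MYB54, MYB69 and MYB110 had 1 AtHY5 event each, with scores from 113 to 275, all inside the gene.

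**Figure D3:**
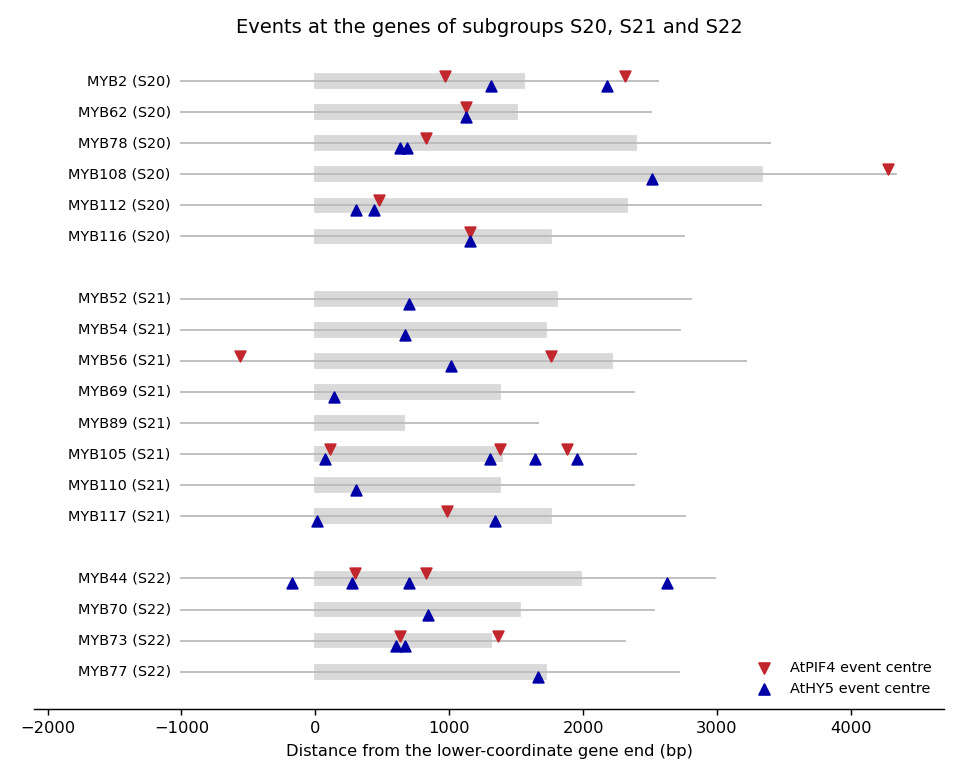
Event centres at the genes of subgroups S20, S21 and S22, by distance from the lower-coordinate gene end (bp, horizontal axis). Grey boxes are genes, lines add 1000 bp on each side, red triangles are AtPIF4 and blue triangles AtHY5 centres, and strand is not shown. Most centres lie inside the boxes, red and blue meet at MYB62 and MYB116, and MYB89 has none.

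MYB21, MYB24 and MYB57 of subgroup S19 drive stamen filament growth downstream of jasmonate, and AtHY5 events lay at all 3, against 1.48 expected by class. AtPIF4 events lay at 2, against 0.75 expected. MYB21 (AT3G27810) had an AtHY5 event of score 1328 at 10311110 to 10311309 on chromosome 3, higher than 99.2% of the list. It lay 717 bp beyond the gene and 19 bp from an AtPIF4 event of score 148. MYB24 had a pair of low scores, 90 for AtPIF4 and 75 for AtHY5, 54 bp apart and also beyond the gene. MYB57 had an AtHY5 event of score 139 and no AtPIF4 event.

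The glucosinolate regulators of subgroup S12 had AtHY5 events at 4 of 6 genes and AtPIF4 events at 2, against 3.0 and 1.58 expected by class. MYB51 (AT1G18570), MYB34 and MYB122 control the indolic branch, and AtHY5 events lay at each, as at 47.7% of all genes. No count expected by class was made for the separate branches, and a difference between them was not tested. MYB51 was the leading member by the sum of its ranks in both lists. Ranks were added without scaling for list length, so ranks in the longer AtHY5 list weigh more. Its AtPIF4 event of score 460 at 6390955 to 6391154 on chromosome 1 and its AtHY5 event of score 430.5 at 6391036 to 6391235 were 81 bp apart, and another AtHY5 event of score 278 lay 311 bp from the AtPIF4 centre. MYB34 had a pair 1 bp apart but low in rank, with an AtPIF4 score of 81 and an AtHY5 score of 114. MYB122 had AtHY5 events of score 129 and 67.5. Of the aliphatic branch, MYB28 and MYB29 had no event, and MYB76 had an AtHY5 event of score 107 located 16 bp beyond the gene.

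Subgroup S18 encodes GAMYB-like proteins of anthers, pollen tubes and seeds. Of its 7 genes, 3 had AtPIF4 events (1.63 expected by class) and 3 had AtHY5 events (3.38 expected). MYB65 (AT3G11440), which acts redundantly with MYB33 in anthers, had AtPIF4 and AtHY5 centres 1 bp apart with scores of 237 and 174, at 3604343 to 3604542 on chromosome 3 for AtPIF4, and an AtHY5 event of score 347. MYB33 had an AtPIF4 event of score 155 and no AtHY5 event in the window. Its nearest AtHY5 event lay 1287 bp beyond the gene, so the difference from MYB65 depends on the window. MYB120, a pollen tube regulator, had an AtPIF4 event of score 253 at 22325555 to 22325754 on chromosome 5 with AtHY5 events of score 157 and 198 at 25 and 91 bp. MYB97, which acts with MYB120, had AtHY5 events of score 400 and 217, both inside the neighbouring gene AT4G26920. MYB81, MYB101 and MYB104 had no event.

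Subgroup S14 had AtHY5 events at 3 of 6 genes (2.90 expected by class) and AtPIF4 events at 1 (1.51 expected). MYB38 (AT2G36890, listed as RAX2), a regulator of axillary meristems, had 2 coincident pairs inside the gene. The stronger joined an AtHY5 event of score 657 at 15486663 to 15486862 on chromosome 2 to an AtPIF4 event of score 145 at 14 bp. The weaker joined scores of 98.4 and 139 at 16 bp. Its relatives MYB37 and MYB84 and the endodermal regulator MYB36 had no event, and MYB68 and MYB87 each had an AtHY5 event of score 86 and 83. Stress genes of subgroup S11 had AtHY5 events at 3 of 4 (1.91 expected by class) and an AtPIF4 event at 1 (0.96 expected). MYB102, induced by wounding and osmotic stress, had an AtPIF4 event of score 186 with AtHY5 events of score 288.5 and 68.5 at 77 and 2 bp, with the AtPIF4 centre 701 bp beyond the gene. MYB74 had AtHY5 events of score 284 and 93, MYB41 had one of score 69.1, and MYB49 had none.

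The secondary wall list and subgroup S13, among others, carried AtHY5 events without AtPIF4. The secondary wall list had AtHY5 events at 5 of 8 genes (3.94 expected by class) and AtPIF4 events at none (2.03 expected). MYB26 (AT3G13890), which thickens the walls of the anther endothecium, had AtHY5 events of score 537 and 340 inside the gene, the first at 4576656 to 4576855 on chromosome 3. It was the highest scoring member with AtHY5 alone. MYB43 followed with 158 and 71 and MYB85 with 119 and 85.2. MYB103, a lignin regulator, had 4 AtHY5 events, all of low score, from 67.3 to 94, and MYB46, a master switch of wall formation, had one of score 89. MYB83, MYB20 and MYB42 had no event. Trichome and root hair genes of subgroup S15 had AtHY5 events at 2 of 3 (1.5 expected by class), with scores of 219 and 98 at MYB0 (GLABRA1) and of 65 at MYB23. MYB66 (WEREWOLF) had an AtPIF4 event of score 83 instead, so AtPIF4 lay at 1 of the 3 genes of S15 (0.77 expected by class). Subgroup S13 had AtHY5 events at 1 of 4 genes (1.87 expected by class) and AtPIF4 events at none (0.96 expected). MYB86 had 3 AtHY5 events, of score 166.5, 125 and 86.3, and MYB50, MYB55 and MYB61 had no event.

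The phenylpropanoid repressors of subgroup S4 had an AtHY5 event at 1 of 6 genes (2.80 expected by class), of score 64 at MYB4, a repressor in sinapate ester synthesis, and no AtPIF4 event (1.39 expected). MYB3, MYB6, MYB7, MYB8 and MYB32 had none. The stress regulators MYB13, MYB14 and MYB15 of S2, the cuticle and organ shape genes MYB16, MYB17 and MYB106 of S9, and MYB1, MYB25 and MYB109 of S23 had no event of either protein. In each of these lists of 3, 1.44 to 1.49 members were expected by class with AtHY5 and 0.70 to 0.79 with AtPIF4, and 46.2% of all genes likewise had no event. Of the 7 genes of S25, which act in embryos and the female gametophyte, MYB98 and MYB119 had AtHY5 events, the highest of score 154 and 187, and the other 5 had none. The event of score 187 lay 816 bp beyond MYB119, inside CYP86A1, and another of score 183.7 lay inside MYB119. By class, 3.39 were expected with AtHY5 and 1.67 with AtPIF4, which lay at none. In S1 the counts were 2 of 5 for AtHY5 (2.51 expected by class) and 1 for AtPIF4 (1.31 expected). AtHY5 events of score 152 and 138 lay at MYB31 and MYB30, and an AtPIF4 event of score 107 at MYB60, a guard cell regulator. MYB94 and MYB96, which act in wax synthesis, had none. Of the 3 genes of S24, 2 had an AtPIF4 event (0.69 expected by class) and 1 an AtHY5 event (1.41 expected). MYB53 had both proteins 204 bp apart with scores of 143 for AtPIF4 and 139 for AtHY5, MYB93 had an AtPIF4 event of score 111, and MYB92 had none.

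Lists of fewer than 3 genes, the division and pattern list and members outside the lists account for the rest. AtHY5 events lay at MYB58, a lignin regulator, with a score of 103, at MYB19 with 128 and at MYB9, a suberin regulator, with 63, the last also inside the neighbour DOT2. MYB63, MYB45 and MYB107, the relatives of these 3, had no event. Nor had the tapetum genes MYB35 and MYB80 or the seed coat pigment regulator MYB123 (TT2). The division and pattern list had AtPIF4 events at MYB88 and MYB124, 2 of 3 genes (0.77 expected by class), and AtHY5 events at none (1.51 expected). The leaf polarity gene MYB91 (AS1) had no event. Of the 16 members without a subgroup here, 6 had an AtHY5 event (7.46 expected by class) and 6 an AtPIF4 event (3.7 expected). MYB5, MYB67 and MYB305 had an AtHY5 event alone, of score 96, 162 and 102, that of MYB5 also inside MAPKKK7. MYB47, MYB95 and MYB99 had events of both proteins, and MYB27, MYB39 and MYB72 had AtPIF4 alone. MYB10, MYB40, MYB48, MYB59, MYB79, MYB82 and MYB121 had none.

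Among members with AtPIF4 alone, MYB72, MYB124, MYB39, MYB27 and MYB33 had the highest scores. MYB72 (AT1G56160), a root gene of iron shortage responses, had the highest AtPIF4 score of the family, 486 at 21024476 to 21024675 on chromosome 1, but that event lay inside NF-YC2 and AT1G56180. MYB124 (listed as FLP), which limits divisions in the stomatal lineage, had an AtPIF4 event of score 210 inside the neighbour UTR3. Its partner in that role, MYB88, had one of score 119 inside UTR1. MYB39, a suberin regulator, and MYB27 had scores of 197 and 175, each inside a neighbouring gene. Of the 40 AtPIF4 events at members, 7 lay inside another protein-coding gene, and all 7 of these lay beyond the member itself. Of the 94 AtHY5 events at members, 11 lay inside another gene, 7 of them beyond the member. When an event was counted for its nearest gene alone, 28 members had AtPIF4, or 23.5%, against 17.6% of all genes and 21.3% matched. For AtHY5 it was 56 members, or 47.1%, against 37.3% and 43.6%.

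The members' highest events were then placed within each list. Over the members with events, the highest AtHY5 score ran from 60 at MYB114 to 1597 at MYB99 with a median of 158, against a median of 134 over all genes with an AtHY5 event. The highest AtPIF4 score ran from 80 at MYB95 to 486 at MYB72 with a median of 148, against 153. MYB99 (AT5G62320) led the family for AtHY5 with its event at 25028963 to 25029162 on chromosome 5, higher than 99.4% of the list. MYB99 also had a pair 1 bp apart of low scores, 103 for AtPIF4 and 72 for AtHY5. The 10 leading AtHY5 members were MYB99, MYB21, MYB56, MYB38, MYB105, MYB26, MYB95, MYB78, MYB73 and MYB51. MYB95 had AtHY5 events of score 510, 162 and 79.2, the first inside AT1G74440 as well, and MYB47 had 4 with a highest score of 361.

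An event in the top 10% of its list lay at 15 members for AtHY5, or 12.6% (7.79 to 19.8), against 6.49% of all genes and 8.08% matched. For AtPIF4 it lay at 2 members, MYB51 and MYB72, or 1.68% (0.462 to 5.92), against 2.65% and 3.25%. Events of both proteins in this top class, and a coincident pair of them, lay at MYB51 alone (0.84%, against 0.991% and 0.798% of all genes). The intervals for AtHY5 and AtPIF4 hold the matched share, and this threshold was chosen after seeing the data. Of the 24 members with both proteins, 19 had an AtHY5 event that stood higher in its list than their AtPIF4 event did in its own, or 79.2%, against 62.2% of the 4665 such genes. The AtHY5 list is longer and more members have several of its events, and both shares come from the same 2 lists. No interval was computed for the 24 members, and the difference was not tested. At MYB51, MYB62, MYB114, MYB116 and MYB120 the AtPIF4 event stood higher.

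**Figure D4:**
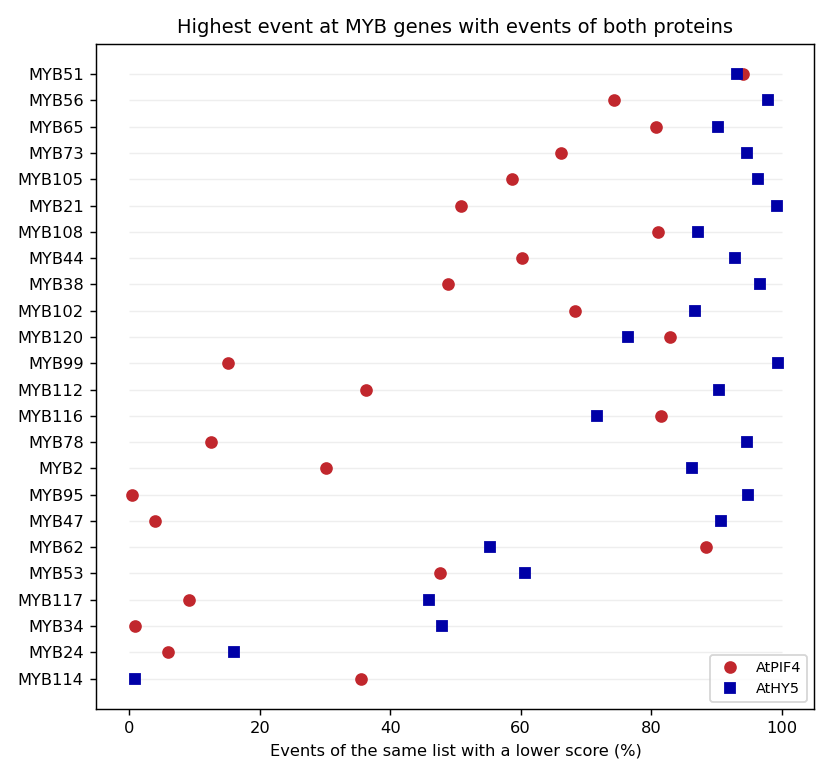
For each of the 24 MYB genes with events of both proteins, the share of events of the same list with a lower score than the gene's highest event (%, horizontal axis), in red for AtPIF4 and in blue for AtHY5. Genes are ordered by the sum of their ranks in the lists, not scaled for list length, with MYB51 at the top. The blue square lies to the right of the red circle at 19 genes.

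Events at MYB genes lay mostly in the gene itself. Of the AtHY5 events in the members' windows, 68.1% (58.1 to 76.6) were inside the gene, against 56.5% over all genes. For AtPIF4 the share was 62.5% (47.0 to 75.8) against 55.9%. Inside the members, AtHY5 centres stood a median of 454.5 bp from the nearer gene end and AtPIF4 centres 440 bp, against 502 and 533 bp over all genes. These figures are not matched for length or gap. The intervals treat events as independent although some members hold several, so they are too narrow to judge the difference by. With the gene body alone, 37% of members had an AtHY5 event against 34.4% matched. With the flanks alone, 18.5% had one against 22.5% matched, so the balance turned with the window. For AtPIF4 the gene body gave 18.5% against 15.7% and the flanks 12.6% against 10.3%.

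Coincident pairs numbered 23 at the 17 members that had any, 18 with the AtPIF4 centre inside the gene and 5 beyond it. Of these pairs 26.1% (12.5 to 46.5) were 2 bp apart or less, against 38.5% of all 3355 pairs in the lists, and 39.1% (22.2 to 59.2) were 20 bp apart or less, against 54.2%. These intervals treat pairs as independent, although at MYB73, MYB102 and MYB120 an AtPIF4 event belongs to more than 1 pair. Exactly 1 bp separated the centres at MYB34, MYB62, MYB65, MYB99 and MYB116. By the unscaled rank sum, in which the AtHY5 rank weighs more, the leading pairs were those at MYB51, MYB73, MYB21, MYB38, MYB105, MYB102, MYB120, MYB116 and MYB65. MYB73 is counted with both of its pairs. Of the members' AtPIF4 events, 52.5% (37.5 to 67.1) had an AtHY5 event within 100 bp, against 47.3% of the whole list.

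At least 2 AtHY5 events lay at 27 members, or 22.7%, against 17.7% of all genes. At least 3 lay at 6 members, or 5.04%, against 5.24%, namely MYB44, MYB47, MYB86, MYB95, MYB103 and MYB105. Exactly 4 lay at MYB44, MYB47, MYB103 and MYB105, so 3.36% of members had at least 4, against 1.31% of all genes. Some of the events counted at MYB103 and MYB44 lay beyond these genes, inside the neighbours DAL1 and CYP81G1. At least 2 AtPIF4 events lay at 6 members, or 5.04%, against 4.05%, and 3 lay at 1 member, MYB105 (0.84%, against 0.696%). These shares of genes with several events rest on few members. They were not matched for gene length or gap, have no interval and were not tested. Members that are neighbours on a chromosome, MYB113 with MYB114, MYB104 with MYB81, MYB29 with MYB76 and MYB24 with MYB115 among them, shared no event. MYB114, an anthocyanin regulator, had an AtPIF4 event of score 127 and an AtHY5 event of score 60 at 33 bp, while MYB113 next to it had none.

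MYB proteins of several subgroups work in complexes with bHLH proteins and the WD-repeat protein TTG1, and single-repeat MYB proteins oppose them by taking the bHLH partner. Of 16 such partner and inhibitor genes, 15 were found in the table. AtPIF4 events lay at 3 of the 15, or 20%, and AtHY5 events at 6, or 40.0%, against 23.1% and 47.7% of all protein-coding genes. TT8, the bHLH partner in seed coat pigment synthesis, was the one with both, with 2 AtPIF4 events of score up to 154, 5 AtHY5 events of score up to 131 and a coincident pair. MYBL2, a single-repeat inhibitor, had 3 AtHY5 events of score up to 120, and MYC2 and MYC3, bHLH factors that join the glucosinolate MYB proteins, had 2 each of score up to 256 and 141. TTG1 and ETC3 had AtHY5 events of score 91 and 67, and EGL3 and TCL2 had AtPIF4 events of score 117 and 146. GL3, TRY, CPC, ETC1, ETC2, TCL1 and MYC4 had none.

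Set beside other transcription factor families named by number, the MYB share for AtHY5 was the third of 4. AtHY5 events lay at 67 of 99 NAC genes, or 67.7% (58.0 to 76.1), with a matched share of 48.8%. They lay at 44 of 71 WRKY genes, or 62.0% (50.3 to 72.4), with 49.0% matched, and at 18 of 45 bZIP genes, or 40.0% (27.0 to 54.5), with 46.2% matched. The interval of the MYB genes (39.1 to 56.8) lies below that of the NAC genes and overlaps those of the WRKY and bZIP genes. For AtPIF4 the shares were 30.3% for NAC, 33.8% for WRKY and 15.6% for bZIP, and their intervals overlap that of the MYB genes. The differences between families were not tested.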

How the data were processed

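DAP-seq events of AtPIF4 and AtHY5 were used, 1 library each. The submitters' processing notes name Trim Galore, Bowtie2 and the build TAIR10, without versions. The authors called events with GEM, per the file headers, and deposited 1 score per event, whose meaning and normalization are not stated. No depth is known, and the input and the Marchantia samples were not analysed here.

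Genes came from RefSeq's table of TAIR10.1. Event centres were assigned to genes with Python 3.11.15, numpy 2.4.6 and pandas 2.3.3, and the window search and the matched share were checked on simulated data. An event served every gene whose window held it. Gene length and summed gap were cut into 5 classes each. The matched share replaces a comparison with random genes, and no chance test was run. The planned motif shares were not run.

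Named are the 10 members with the highest score for each protein, the 10 leading by rank sum and the 10 leading pairs, the 5 highest with 1 protein alone, members with 3 or more events, the highest of each subgroup of 3 or more, and the members without events. The other members of a subgroup were added where the subgroup is described. The members and lists were chosen with earlier results of these data known. MYC1 was not found in the table.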

Additional observations from a re-analysis of the deposited data

How the results depend on the processing

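Each count was recomputed under 11 alternatives, or 13 for coincident pairs, and 8 of 11 or 9 of 13 stayed within 1.5 times the reported count. With 1000 bp flanks alone, 15 members had AtPIF4 (12.6%, against 11.4% of all genes and 10.3% matched). AtHY5 lay at 22 (18.5%, against 25.9% and 22.5%). Both lay at 5 (4.2%, against 7.05% and 6.02%) and a coincident pair at 4 (3.36%, against 5.66% and 4.97%). Among events above the median score, 17 had AtPIF4 (14.3%, against 12.6% and 13.1%) and 12 both (10.1%, against 7.64% and 8.83%). A coincident pair of such events lay at 8 (6.72%, against 5.56% and 6.7%). With equal numbers of events, 34 had AtHY5 (28.6%, against 23% and 25.4%) and 10 a coincident pair (8.4%, against 7.4% and 9.19%). In the top 10% of each list, chosen after seeing the data, 2 had AtPIF4 (1.68%, against 2.65% and 3.25%). AtHY5 lay at 15 (12.6%, against 6.49% and 8.08%). Both lay at 1 (0.84%, against 0.991% and 1.41%) and a coincident pair at 1 (0.84%, against 0.798% and 1.08%). Without matching, the background was 23.1% for AtPIF4, 17% for both and 11.9% for a coincident pair. With S20 kept, the AtPIF4 share lay above the matched share in 9 of 10 alternatives and below it in the top 10%. The AtHY5 share lay above it in 7 of 10 and below in 3, and below it as reported. The share with both lay above it in 8 of 10, and that with a coincident pair in 8 of 12. These alternatives recount largely the same members in the same 2 lists, so the tallies are not independent support. Some margins were small, for AtPIF4 20.2% against 20% matched within 500 bp and 32.8% against 32.5% within 2000 bp. Without S20, a subgroup picked for its calls, the members' 4 shares lay below the matched ones, and leaving it out can only lower them. The cause of these shifts was not tested. No paired analysis was possible because each protein has 1 library. The wider motifs were not run, as no sequence was used. Unknown depth limits any statement on members without an event, 14 of which had an event within 2000 bp.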

Other observations

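The numbered MYB names leave out proteins with more repeats. Of 6 such genes, MYB3R-3, MYB3R2, MYB3R-4, MYB3R-5 and PC-MYB1, which belong to a class with an added repeat known for control of the cell cycle, and MYB4R1, AtPIF4 events lay at MYB3R-3 with a score of 280 and at MYB3R2 with 100. AtHY5 events lay at MYB3R-5 with 288, MYB4R1 with 102 and MYB3R2 with 75. MYB3R-4 and PC-MYB1 had none. Of all protein-coding genes, 23.1% had an AtPIF4 event, 47.7% an AtHY5 event and 46.2% neither.

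The share of members with an AtPIF4 event varied among the chromosomes, most of all on chromosome 1. On chromosome 1, 13 of 27 members had one, or 48.1%, against 26.3% of all genes there. On chromosome 3 it was 4 of 28, or 14.3%, against 17.6%. For AtHY5, members on chromosome 2 had 3 of 12, or 25%, against 43.8%, and those on chromosome 4 had 10 of 16, or 62.5%, against 52.2%. On chromosomes 1, 3 and 5 the AtHY5 share was 55.6%, 42.9% and 47.2%, against 52.7%, 36.1% and 51.6%. These splits were made after seeing the data, were not matched for gene length or gap and were not tested.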
